A study of Saccharomyces cerevisiae with 78 samples.

Results

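The nuclear genes of oxidative phosphorylation were followed in 78 RNA-seq libraries of baker's yeast, strain BY4742, a haploid laboratory strain of alpha mating type. The members were chosen as rows whose identifier equals 1 of 35 listed locus tags of nuclear subunits of succinate dehydrogenase, the cytochrome bc1 complex, cytochrome c, cytochrome c oxidase and ATP synthase. Of the 35 genes 25 had a row among the 5229 gene rows: 4 of 4 for complex II, 6 of 9 for complex III, CYC1 for cytochrome c, 4 of 8 for complex IV and 10 of 13 for complex V. QCR8, QCR9, QCR10, COX7, COX8, COX9, COX12, ATP15, ATP18 and TIM11 were not analysed here, nor were the mitochondrially encoded subunits. All 25 members with a row passed the filter on low counts.

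Cells were transformants with 1 of 25 fusion-gene plasmids, M490-A12, M490-F09, M491-C03, M491-C04, M491-C06, M491-C07, M491-C09, M491-C12, M491-D01, M491-D07, M491-D09, M491-E04, M491-E09, M491-F02, M491-F10, M492-C04, M492-C11, M492-D07, M492-E01, M492-E11, M493-C02, M495-C02, M495-D09, M495-F02 and M497-F10, or with a control plasmid, which the names of 2 of its 3 libraries give as p416-GAL1. The third control library, the only one whose name marks it as resubmitted, is named PP2061, and every value of resubmitted libraries relative to the control rests on it. All groups shared the strain and the medium, a galactose medium without uracil, in which cells were harvested in mid-logarithmic growth, and each had 3 biological replicates. The labels do not say which genes a clone joins. In 2 of the 3 M492-E01 libraries the library name holds another clone's name, so the median over the members is also given for each kind of library of that clone, and its other values rest on all 3.

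Electrons from succinate enter the respiratory chain at complex II, pass over ubiquinone to complex III, over cytochrome c to complex IV and there to oxygen. Complexes III and IV pump protons, and complex V, the ATP synthase, uses the gradient. In yeast these genes are repressed by glucose, and the Hap2/3/4/5 activator, whose amount is set by Hap4, drives many of them when cells respire. Galactose represses them less than glucose does.

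Total counts were 10773809 to 18981572 per library. Levels are CPM, gene counts scaled to a common library total with TMM factors. Replicates 1 and 2 of each group carry library names of a first set and replicate 3 the name of a resubmitted set, so a term for the set stood in the fit behind the values given here. The set term was large: between the resubmitted and the first set 5 of 25 members were called higher and 18 lower, against 41.4% of all genes higher and 43.2% lower, with a median log2 difference of -0.16 for the members and -0.01 for all genes. The alpha-type genes STE3 and SAG1 stood at 126.2 to 281.7 and 75.7 to 214.0 CPM over all libraries, while the a-type genes STE2 and BAR1 stood at 15.8 to 27.0 and 8.38 to 14.6 CPM. The galactose genes GAL1 and GAL10 held 8256 to 27370 and 11960 to 24280 CPM. Genes of the alpha mating type and of galactose use were thus expressed in every library. In bulk RNA, fewer transcripts per cell and a smaller share of the cells cannot be told apart.

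To compare genes, control levels were divided by coding length. The 25 members had a median of 742.9 CPM per kilobase in the control, against 56.5 CPM per kilobase over all genes tested. ATP2 (YJR121W), the catalytic beta subunit of the ATP synthase, was highest with 1531, 1668 and 2096 CPM per kilobase in the 3 control libraries, a mean of 1765 ± 294.6 (SD, n = 3). In complex V it was followed by ATP17, ATP1 (the alpha subunit), ATP4, ATP16, ATP7, ATP3 (the gamma subunit), ATP5 and ATP14, between 1336 ± 63.1 and 742.9 ± 39.3 CPM per kilobase (SD, n = 3). ATP20, the subunit g that serves dimer formation, was set apart below them with 339.4, 317.2 and 315.9 CPM per kilobase. Among neighbours in this order ATP1 and ATP4, ATP4 and ATP16, and ATP5 and ATP14 overlapped. The other neighbours did not, ATP14 and ATP20 among them.

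Within complex III, QCR6 and QCR7 held 1143 ± 146.2 and 1027 ± 151.6 CPM per kilobase (SD, n = 3), and their libraries overlapped. QCR2 and COR1, the core proteins, came next with 478.5 ± 51.1 and 426.2 ± 10.5 CPM per kilobase, and again overlapped. The catalytic subunits were lowest: RIP1, the Rieske iron-sulfur protein, held 359.8 ± 3.12 and CYT1, cytochrome c1, 283.7 ± 13.97 CPM per kilobase (SD, n = 3), with no overlap between them. In complex IV, COX13 held 1096, 1084 and 740.2 CPM per kilobase, while COX4 (YGL187C), COX6 and COX5A lay between 659.5 ± 54.4 and 549.4 ± 51.2 CPM per kilobase (SD, n = 3). In complex II, SDH4, SDH2 and SDH3 held 772.3 ± 39.1, 692.8 ± 5.77 and 657.7 ± 92.4 CPM per kilobase, and SDH1 (YKL148C), the flavoprotein, 251.8 ± 55.0 (SD, n = 3), below all of them in every library. CYC1 (YJR048W), the main cytochrome c, held 105.5, 95.2 and 78.4 CPM per kilobase. It was the lowest member and stood at the 68.0th percentile of all genes tested, while all others were above the 88th.

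**Figure D1:**
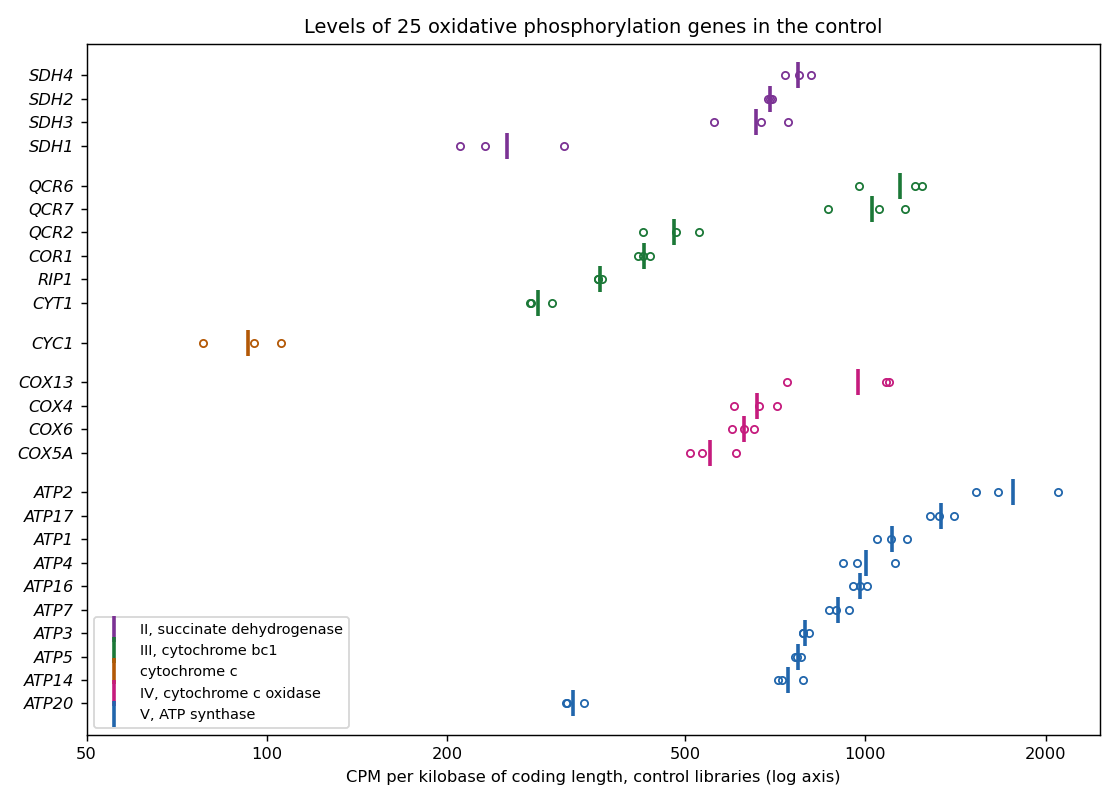
CPM per kilobase of coding length (log axis) of the 25 genes in the 3 control libraries (circles) with their mean (bar), by complex. ATP2 is highest at a mean of 1765 and CYC1 lowest at 93.0.

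All 25 members differed among the 26 groups in edgeR's quasi-likelihood test with Benjamini-Hochberg adjustment, against 83.2% of all genes tested, so that having differed at all did not set them apart. The fitted range from the lowest to the highest group had a median of 0.72 log2 units over the members and 0.47 over all genes, and ran from 0.50 for SDH2 to 1.08 for CYC1. The 5 members with the largest F statistic were ATP5 (16.4), SDH4 (16.3), ATP16 (15.4), ATP3 (15.3) and SDH3 (13.9). ATP5, the stalk subunit that links the catalytic head to the membrane part, averaged 343.5 ± 16.8 CPM in M495-D09, the lowest group, 588.8 ± 69.4 CPM in M491-C04, the highest, and 492.6 ± 5.50 CPM in the control (SD, n = 3 each), with a median of 494.9 CPM over the group means. SDH4, a membrane anchor of complex II, averaged 339.5 ± 32.8 CPM in M495-D09, 522.1 ± 13.2 CPM in M491-E04 and 421.7 ± 21.3 CPM in the control (SD, n = 3 each). SDH3, the other anchor, averaged 301.8 ± 54.6 CPM in M495-F02, 518.1 ± 106.9 CPM in M491-C04 and 392.6 ± 55.1 CPM in the control (SD, n = 3 each). The same clones stood at the ends for most members: in the fit M495-D09 was the lowest group for 21 members and M495-F02 for 4, and M491-E04 was the highest for 12 and M491-C04 for 6.

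No member was called for the average of the 25 clones against the control, where 6.33% of all genes were called in edgeR. SDH2 and ATP7 reached an unadjusted p under 0.05, with log2 differences of 0.12 ± 0.05 and -0.11 ± 0.05 (SE), and DESeq2 called 0 members. The members had a median log2 difference of -0.02, and all genes one of -0.003. A letter from A to E in each library name was read here as a plate row. What kind of plate it stands for is not stated. Averages over the clones of 1 plate row were also set against the control. The 6 clones whose first-set libraries lie in plate row D, M495-D09 and M495-F02 among them, were lower for 13 members (4.26% of all genes lower). Those of row A were higher for 5 (12% of all genes higher) and those of row B for 3 (8.25%).

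**Figure D2:**
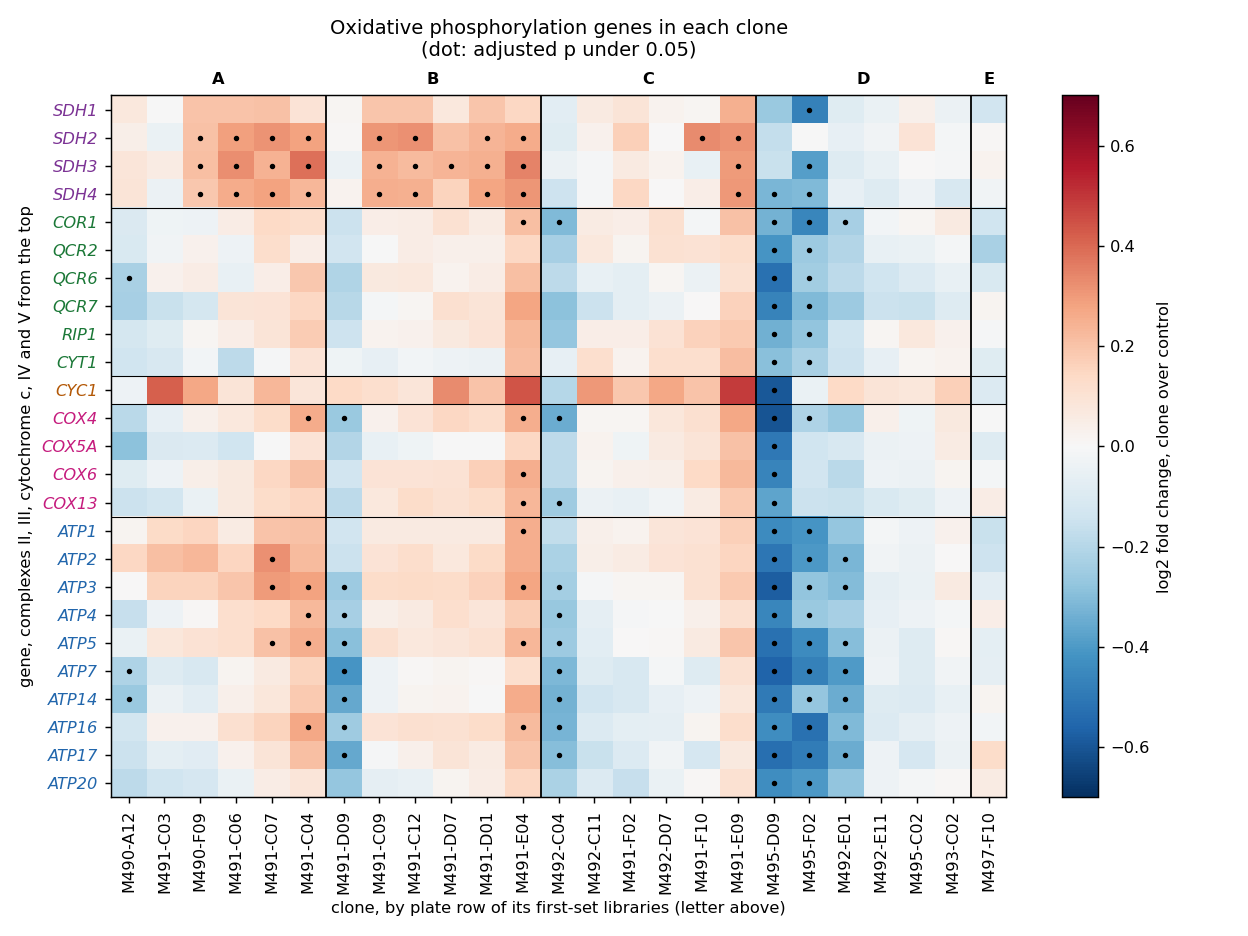
Log2 fold change of each clone over the control (colour) for the 25 genes, with a dot where the adjusted p is under 0.05. Clones are ordered by plate row and median, and genes by complex. The blue columns of M495-D09 and M495-F02 hold 22 and 20 dots, and red dots are mostly those of SDH2, SDH3 and SDH4.

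Taken clone by clone against the control, 116 of 625 clone and gene pairs passed the test, 45 higher and 71 lower, while over all genes 5.87% of such pairs were higher and 4.76% lower. The balance of higher and lower pairs depended on the libraries used: without replicate 3 of the control 54 pairs were higher and 41 lower, and with the first set alone 179 were higher and 90 lower. With all libraries every clone with a call moved to 1 side: 11 clones had members that rose, 6 had members that fell, none had both, and 8 had none. Complex V carried 43 of the 71 lower pairs and complex II 29 of the 45 higher ones. Of the lower pairs 60 had no overlap between the 3 clone and 3 control libraries, and of the higher pairs 27. Over all genes 2.68% of pairs were called lower without overlap and 3.7% higher. Of the called pairs 8, all lower, belonged to M492-E01.

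M495-D09 had the most members called. In this clone 22 of 25 members fell and none rose, against 5.41% of all genes lower, with a median log2 fold change of -0.46 over the members. All 10 measured subunits of complex V, all 6 of complex III, all 4 of complex IV and CYC1 fell, while in complex II SDH4 alone did. COX4, a structural subunit of complex IV required for its assembly, stood at 227.2, 219.3 and 166.6 CPM in M495-D09, against 332.9, 311.0 and 282.1 CPM in the control (-0.61 ± 0.09 on the log2 scale, SE, adjusted p = 3.49e-07). All 3 clone libraries lay below all control libraries. CYC1 stood at 22.3, 21.0 and 17.6 CPM in M495-D09, against 34.8, 31.4 and 25.9 CPM in the control (-0.59 ± 0.19, SE, adjusted p = 0.0303). At this low level the call was lost when replicate 1 or 2 of the clone or replicate 1 or 3 of the control was left out, with adjusted p of 0.0787 to 0.127.

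The ATP synthase genes of M495-D09 moved as a block, from -0.43 to -0.58 on the log2 scale. ATP3, the gamma subunit that turns within the catalytic head, stood at 510.6, 494.1 and 488.7 CPM in M495-D09, against 736.6, 735.7 and 753.8 CPM in the control (-0.58 ± 0.07, SE, adjusted p = 4.62e-08). ATP7, a subunit of the peripheral stalk, stood at 342.7, 340.2 and 282.5 CPM in M495-D09, against 492.7, 468.2 and 457.1 CPM in the control (-0.56 ± 0.07, SE, adjusted p = 3.30e-08). Both genes were lower in all 3 clone libraries. The median over members was -0.36 in first-set libraries and -0.55 in the resubmitted one. Leaving out any 1 of the 6 libraries gave counts of 18 to 21 called members.

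In M495-F02 20 members fell and none rose, but 24.7% of all genes also fell in this clone and 25.6% rose. The median over the members was -0.28, with -0.18 over first-set libraries and -0.49 in the resubmitted one. All 10 measured subunits of complex V, all 6 of complex III and 3 of 4 of complex II fell, and of complex IV COX4 alone did. ATP16, the delta subunit of the central stalk, stood at 343.3, 340.5 and 306.2 CPM in M495-F02, against 473.0, 459.9 and 487.0 CPM in the control (-0.52 ± 0.07, SE, adjusted p = 7.72e-09). SDH1 stood at 347.2, 328.2 and 348.6 CPM in M495-F02, against 403.6, 445.0 and 604.0 CPM in the control (-0.47 ± 0.10, SE, adjusted p = 4.42e-05). Neither gene overlapped between the groups. ATP17, subunit f of the membrane part, and ATP7 fell by 0.49 and 0.47 on the log2 scale. SDH2, the iron-sulfur protein, stood at 615.1, 611.9 and 448.1 CPM in M495-F02, against 555.8, 559.1 and 550.0 CPM in the control, so its first-set libraries were above and its resubmitted library below the control. Without replicate 3 of the control 12 members were called.

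Set against each other, M495-D09 and M495-F02 differed in complex IV, a comparison added after the values were seen. All 4 complex IV members were lower in M495-D09 than in M495-F02, by a log2 ratio of -0.39 ± 0.09 for COX4, -0.36 ± 0.12 for COX5A, -0.32 ± 0.08 for COX6 and -0.22 ± 0.07 for COX13 (SE, largest adjusted p = 0.00887). COX6 stood at 213.8, 207.1 and 190.7 CPM in M495-D09, at 261.2, 270.7 and 233.8 CPM in M495-F02 and at 280.6, 268.1 and 291.8 CPM in the control. CYC1 (-0.55 ± 0.19), QCR6 (-0.28 ± 0.08), ATP3 (-0.30 ± 0.07), ATP4 (-0.20 ± 0.07) and SDH2 (-0.17 ± 0.07) were also lower in M495-D09, and SDH3 was higher (0.23 ± 0.07, SE). In all 9 members were lower and 1 higher, against 21.8% of all genes lower and 22.5% higher between these clones.

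**Figure D3:**
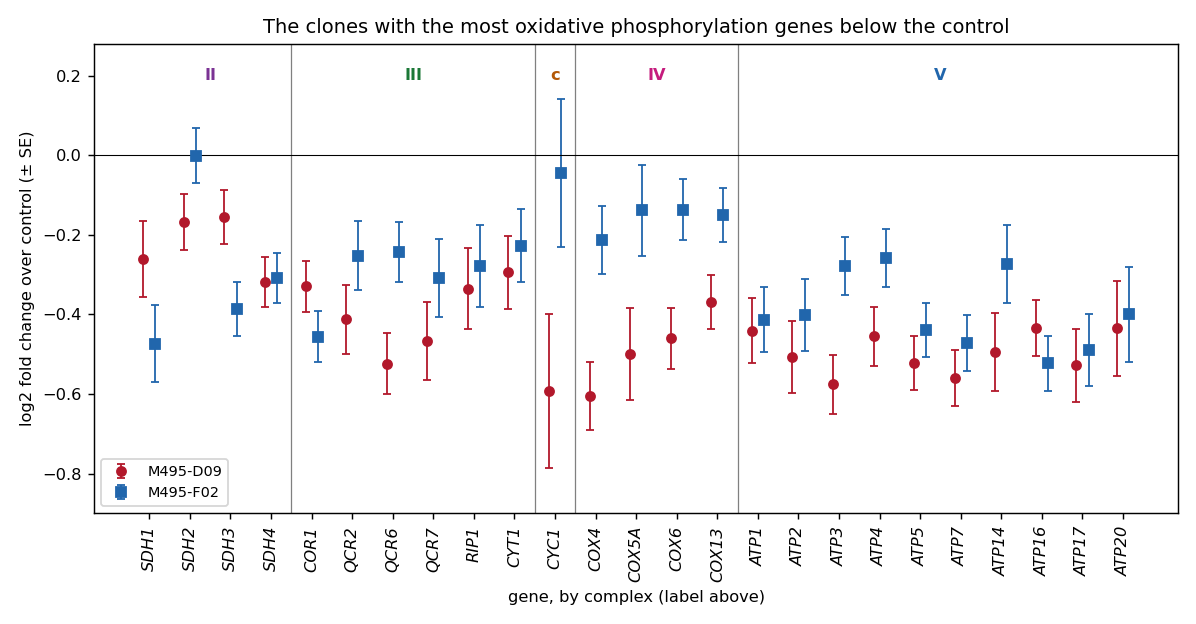
Log2 fold change over the control with its SE for each gene in M495-D09 (circles) and M495-F02 (squares), by complex. Complex V genes are low in both clones, and the 4 complex IV genes lie between -0.37 and -0.61 in M495-D09, against -0.14 and -0.21 in M495-F02.

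M492-C04, M491-D09 and M492-E01 shared lower ATP synthase genes. In M492-C04 10 members fell (4.09% of all genes lower), in M491-D09 8 (4.49%) and in M492-E01 8 (0.902%), and in each of them 7 of the 10 complex V members were among these, namely ATP7, ATP5, ATP16, ATP14, ATP17 and ATP3 with ATP4 or ATP2. None of the 4 complex II members passed in any of the 3 clones. ATP7 stood at 378.2, 420.5 and 346.3 CPM in M492-C04 (-0.31 ± 0.07, SE, adjusted p = 0.00169), at 380.6, 351.6 and 335.5 CPM in M491-D09 (-0.41 ± 0.07, SE, adjusted p = 4.38e-05) and at 365.6, 359.8 and 351.1 CPM in M492-E01 (-0.40 ± 0.07, SE, adjusted p = 0.000238), against 492.7, 468.2 and 457.1 CPM in the control. No library of the 3 clones reached the lowest control library. ATP7 fell in 6 clones in all, as did ATP14, more than any other member.

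In M492-C04 the largest falls beside ATP7 were those of COX4 (-0.35 ± 0.09), ATP14 (-0.33 ± 0.10) and ATP16 (-0.33 ± 0.07, SE). ATP14, subunit h of the stalk, stood at 240.6, 254.6 and 180.5 CPM in M492-C04, against 295.5, 268.2 and 272.0 CPM in the control (adjusted p = 0.0267), and its call was lost without replicate 1 or 3 of either group. The number of members called was 5, 3, 6 and 4 without clone replicate 1, clone replicate 3, control replicate 1 and control replicate 3. In M491-D09, ATP17 stood at 356.5, 323.9 and 282.2 CPM, against 429.7, 391.6 and 405.6 CPM in the control (-0.36 ± 0.09, SE, adjusted p = 0.00545), ATP14 fell by 0.36 and ATP5 by 0.29 on the log2 scale. Without clone replicate 2 or control replicate 3, 3 members were called. In M492-E01 the median over members was -0.23 in the 2 first-set libraries, whose names hold the other clone, and -0.14 in the resubmitted library, and COR1 was its called member outside complex V. With the first set alone 19 members were called lower in this clone.

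Clones in which members rose did so most often in complex II. SDH2 and SDH3 rose in 10 clones each and SDH4 in 9, all within 11 clones, of which 4 lie in plate row A, 5 in row B and 2 in row C of the first set. SDH1, the fourth subunit, rose in no clone. M491-C12 is an example, with SDH2 at 697.4, 728.0 and 652.5 CPM against 555.8, 559.1 and 550.0 CPM in the control, higher by 0.32 on the log2 scale. Its 3 libraries lay above all control libraries. Against the other groups of its own plate row, SDH2 of M491-C12 was higher by 0.11 only and did not pass. The calls of M490-F09 (8.6% of all genes higher), M491-C06 (11.4%), M491-C09 (4.49%), M491-C12 (4.95%), M491-D01 (6.79%) and M491-E09 (2.65%) were these 3 genes alone, a count of 3 of 25 that is near the share of all genes in M490-F09 and M491-C06. M491-D07 had SDH3 alone (3.03%) and M491-F10 SDH2 alone (11.5%). M491-C07 (12.1%) added ATP2, ATP3 and ATP5, for 6 members.

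M491-E04 had the most members that rose, 11 of 25, against 4.57% of all genes higher, with a median of 0.23 (0.24 over first-set libraries and 0.22 in the resubmitted one). They were 3 members of complex II, COR1 of complex III, 3 of complex IV and 4 of complex V. SDH3 stood at 493.1, 552.3 and 445.9 CPM in M491-E04, against 443.6, 400.2 and 334.1 CPM in the control (0.35 ± 0.07, SE, adjusted p = 0.000568). SDH4 stood at 527.5, 531.7 and 507.1 CPM in M491-E04, against 422.3, 442.7 and 400.1 CPM in the control (0.31 ± 0.06, SE, adjusted p = 0.000861), and ATP3 at 903.2, 909.7 and 883.6 CPM, against 736.6, 735.7 and 753.8 CPM (0.28 ± 0.07, SE, adjusted p = 0.0119). All 3 clone libraries were above all control libraries for SDH3, SDH4, ATP3 and SDH2. The count was 2 without replicate 1 or 2 of the control, 3 without clone replicate 3 and 6 without clone replicate 2.

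In M491-C04 8 members rose (8.12% of all genes higher): SDH2, SDH3, SDH4, COX4, ATP3, ATP4, ATP5 and ATP16. ATP16 stood at 621.1, 604.3 and 491.99 CPM in M491-C04, against 473.0, 459.9 and 487.0 CPM in the control (0.27 ± 0.07, SE, adjusted p = 0.00486), so the resubmitted library exceeded its control by 0.01 log2 units only. ATP3 and ATP5 rose by 0.28 ± 0.07 and 0.25 ± 0.07 (SE), with 0.08 and 0.06 in the resubmitted set. Over the members the median was 0.34 over the 2 first-set libraries and -0.11 in the resubmitted one. Without clone replicate 1, clone replicate 2, clone replicate 3 or control replicate 1 the count was 2, 5, 13 and 5.

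M490-A12 had 3 members that fell, QCR6, ATP7 and ATP14, against 10.5% of all genes lower. The 8 clones without a called member were M491-C03, M492-E11, M491-F02, M492-C11, M492-D07, M493-C02, M495-C02 and M497-F10, in which 12.9%, 0.883%, 0.46%, 0.0384%, 0.0192%, 0.0767%, 1.57% and 1.48% of all genes were called in either direction. M491-C03 thus had many called genes and no member among them. Its library sets differed, with a median over the members of 0.08 in first-set libraries and -0.32 in the resubmitted one.

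**Figure D4:**
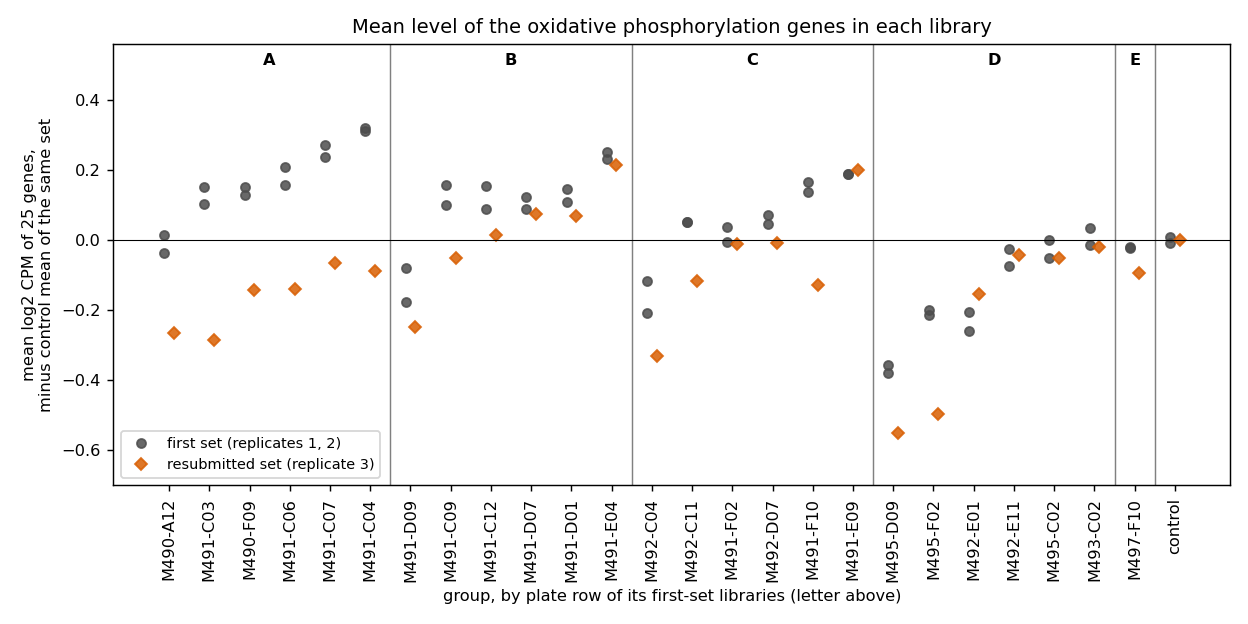
Mean log2 CPM of the 25 genes in each library minus the control mean of the same library set, for first-set (circles) and resubmitted (diamonds) libraries, by plate row with the control at the right. The row A clones M490-F09, M491-C03, M491-C04, M491-C06 and M491-C07 lie above 0 in both first-set libraries and below 0 in the resubmitted one, and M495-D09 lies between -0.36 and -0.55.

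Plate rows moved with these results in the first set. All clones but M497-F10 lay in another row than the control in both library sets. For them a difference between clone and control cannot be told apart from a difference between rows. Mean log2 CPM of the members over first-set libraries had a median of 8.83 in row A, 8.79 in row B, 8.72 in row C, 8.53 in row D and 8.66 in row E, which holds the control and M497-F10. Each clone was also set against the other groups of its own row, so that in row D the low clones M495-D09 and M495-F02 are among those the others are compared with. M495-D09 was then lower for 23 members (6.6% of all genes), M492-C04 for 21 (8.69%), M491-D09 for 19 (2.71%), M495-F02 for 12 (28.6%) and M492-E01 for 1 (4.99%), while M491-E04 was higher for 16 (5.99%), M491-E09 for 16 (5.49%) and M491-C04 for 11 (5.91%). In M492-E01 the median over the members was then -0.06. In the same row D, M492-E11 was higher for 9 members (6.6% of all genes), M493-C02 for 13 (5.37%) and M495-C02 for 5 (3.28%), none of which had a member called against the control. In row A, M490-A12 was lower for 10 (3.15%). In M490-F09, M491-C06, M491-C09, M491-C12, M491-D01 and M491-D07, all with complex II calls against the control, no member was called within the row. Of all genes 1.34%, 20.1%, 0.556%, 0.0192%, 0.77% and 0.249% were called there in either direction. M491-C07 was higher for 4 (10.7%) and M491-F10 for 1 (13.9%).

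Each group was also set against the mean of all other groups, the control included, which rests less on the 3 control libraries. Here 192 of 650 pairs were called, 89 higher and 103 lower. Of all genes 0.326% (M491-C12) to 60.65% (M495-F02) were called in these comparisons, in either direction. M495-D09 was lower for all 25 members (6.64% of all genes), M495-F02 for 23 (29.5%), M492-C04 for 19 (13.5%), M492-E01 for 15 (5.87%) and M491-D09 for 9 (1.73%). M491-E04 was higher for 21 (7.83%), M491-C04 for 18 (7.27%) and M491-E09 for 17 (5.74%). The 10 largest differences all belonged to M495-D09 and M495-F02. CYC1 averaged 20.3 ± 2.45 CPM in M495-D09 (SD, n = 3) and 34.7 CPM over the other groups, a log2 difference of -0.75 ± 0.15 (SE, adjusted p = 0.000114). COX4 averaged 204.4 ± 32.9 CPM in M495-D09 and 315.1 CPM in the others (-0.62 ± 0.07, SE, adjusted p = 9.92e-11), and ATP3 497.8 ± 11.4 CPM in M495-D09 and 768.6 CPM in the others (-0.62 ± 0.06, SE, adjusted p = 3.01e-12). In M495-F02, SDH1 averaged 341.3 ± 11.4 CPM, against 504.2 CPM in the others (-0.53 ± 0.07, SE, adjusted p = 1.21e-08). Among these 10, all 3 libraries lay below all 75 other libraries for ATP3 and COX6 in M495-D09 and SDH1 in M495-F02. The share of all genes that did so was not computed. ATP2, ATP5, QCR6 and COX6 in M495-D09 and ATP16 and SDH3 in M495-F02 completed the 10, between -0.49 and -0.55.

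Over the 26 group means the members varied together. Pearson's r between 2 members had a median of 0.84 over 300 pairs, with 0.91 for the 72 pairs within a complex, 0.81 for pairs of different complexes and a lowest value of 0.45. Over all genes tested the median was -0.01. These groups share strain, medium and library sets. CYT1 and CYC1 were least like the rest, with median r of 0.65 and 0.66 to the other members, and ATP4 was most like them with 0.91. The rows outside the list most like the members' mean over these 26 groups were MIR1 (r = 0.86), the mitochondrial phosphate carrier, KGD2 (0.85), YNK1 (0.84), POR1 (0.84), the outer membrane porin, MDH1 (0.83), KGD1 (0.83), KGD4 (0.82), a row that joins PET9 and AAC3 (0.80), DIB1 (0.79) and MEF2 (0.79). KGD1, KGD2 and KGD4 are subunits of the alpha-ketoglutarate dehydrogenase of the citric acid cycle, and PET9 and AAC3 encode ADP/ATP carriers whose reads cannot be told apart in the joined row.

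The other mitochondrial genes did not follow the members in all clones. In M495-D09, where 22 members fell, 37 of 40 measured mitochondrial ribosomal protein genes rose and none fell, with a median log2 fold change of 0.40. Of all genes 8.04% were called higher in this clone. MRPL28, MRPL31 and MRPL8 rose by 0.70 ± 0.10, 0.69 ± 0.08 and 0.57 ± 0.07 (SE), and MRPL31 averaged 78.8 ± 6.08 CPM in M495-D09 and 48.9 ± 1.78 CPM in the control (SD, n = 3 each). Of 43 measured factors for assembly of the complexes or translation of their mitochondrial genes 23 rose and none fell there. Among them COX23, needed for assembly of complex IV, rose by 0.75 ± 0.13, ATP11, a chaperone of the ATP synthase, by 0.63 ± 0.07 and SCO1, a copper chaperone of complex IV, by 0.60 ± 0.07 (SE). ATP11 averaged 93.9 ± 6.27 CPM in M495-D09 and 60.5 ± 4.08 CPM in the control (SD, n = 3 each).

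Ribosomal protein genes of the mitochondrion also rose in M490-A12 (34 of 40, median 0.32), M491-D09 (29 of 40, median 0.29) and M492-E01 (22 of 40, median 0.30). Of all genes 11.9%, 8.69% and 2.49% were called higher in these clones. Of the 43 assembly and translation factors 16 rose in M491-D09 and 7 in M492-E01. Among clones with no member lower, 27 of the 40 rose in M490-F09 (8.6% of all genes higher), 26 in M491-C03 (6.54%) and 25 in M491-C07 (12.1%). In M492-C04 none of the 40 rose and 1 fell (4.09% of all genes lower), with a median of -0.03. M495-F02 had 3 of 40 higher and 4 lower and a median of -0.03, and 7 of the 43 factors were higher and 7 lower. Of all genes 25.6% were higher and 24.7% lower in M495-F02. M491-E04, with its higher members, had 2 of 40 higher (4.57% of all genes). Such rises were not limited to clones with low members: the median of the 40 genes was above 0 in 22 of 25 clones, and 20 clones had at least 1 of them called higher. All these comparisons share the control. The control itself was lower than the other groups for 11 of the 40 (3.70% of all genes lower), with a median of -0.14. Against the other groups 33 of 40 were higher in M495-D09 (9.44% of all genes), 26 in M490-A12 (10.3%), 21 in M491-D09 (5.16%) and 23 in M492-E01 (6.85%). Fewer were higher than against the control in M490-F09 (9, beside 5.2% of all genes), M491-C03 (13, 7.92%) and M491-C07 (7, 9.92%). In M492-C04 25 were lower (13.5% of all genes) and in M495-F02 23 (29.5%).

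**Figure D5:**
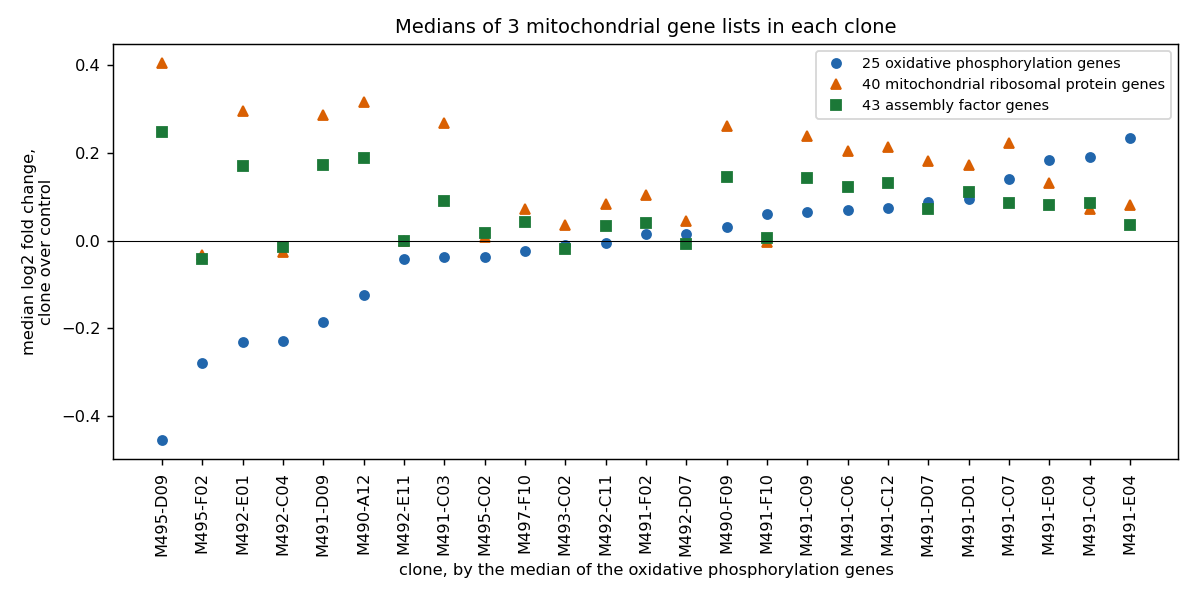
Median log2 fold change of each clone over the control for the 25 oxidative phosphorylation genes (circles), 40 mitochondrial ribosomal protein genes (triangles) and 43 assembly and translation factors (squares), with clones ordered by the circles. In M495-D09 the medians are -0.46, 0.40 and 0.25.

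The citric acid cycle supplies the chain with NADH and succinate. Of its 11 genes 8 fell in M495-F02 (24.7% of all genes lower) and none rose (median -0.33). They were led by MDH1 (-0.89 ± 0.08), IDH2 (-0.62 ± 0.06) and IDH1 (-0.58 ± 0.08, SE). In M495-D09 (5.41% of all genes lower) CIT1, MDH1 and FUM1 fell, by 0.37, 0.27 and 0.22 on the log2 scale. CIT1, the citrate synthase, and MDH1 fell in M492-C04 (4.09%), by 0.63 and 0.26. In M491-C04 (8.12% of all genes higher) 4 rose, led by LSC2 (0.47 ± 0.07, SE). In M491-E04 (4.57%) LSC2 and MDH1 rose by 0.29 and 0.24. Of 6 other electron donors NDI1, the internal NADH dehydrogenase, fell in M495-D09 (-0.34 ± 0.12, SE) and in M495-F02 (-0.33 ± 0.12, SE), while NDE2, an external one, rose by 0.30 and 0.68. Of 16 measured genes for coenzyme Q and heme 4 rose in M495-D09 (8.04% of all genes higher) and none fell. In M495-F02 2 rose and 5 fell, where 25.6% of all genes were higher and 24.7% lower. HEM13, which acts in heme synthesis, led the 5 with -0.79 ± 0.11 (SE).

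SHH4 and SHH3, paralogs of SDH4 and SDH3, rose by 1.36 ± 0.09 and 1.26 ± 0.08 (SE) in M495-F02, where SDH4 and SDH3 themselves fell by 0.31 and 0.39 on the log2 scale. SHH3 averaged 149.1 ± 39.1 CPM in M495-F02 and 61.5 ± 4.85 CPM in the control (SD, n = 3 each). Near-identical stretches between such paralogs could shift counts between them, and this was not tested. In M495-D09 SHH4 and SHH3 rose by 0.35 and 0.33. CYC7, the other isoform of cytochrome c, averaged 110.2 ± 36.1 CPM in M492-C04 and 48.1 ± 17.6 CPM in the control (SD, n = 3 each). Its log2 ratio was 1.25 ± 0.15 (SE, adjusted p = 5.97e-09), and CYC1 stood at -0.20 ± 0.19 there and did not pass. In M495-F02 CYC7 fell by 0.69.

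HAP4, the gene for the activating subunit of the Hap complex, fell in M495-F02, M492-C04, M492-E11, M491-C03 and M490-A12. It stood at 230.6, 232.7 and 265.1 CPM in M495-F02 and at 239.2, 259.7 and 272.2 CPM in M492-C04, against 322.9, 340.7 and 482.0 CPM in the control, with log2 fold changes of -0.64 ± 0.08 (SE, adjusted p = 3.63e-10) and -0.56 ± 0.08 (SE, adjusted p = 1.67e-07). In M495-D09 it stood at 393.2, 381.5 and 520.2 CPM (0.18 ± 0.08, SE, adjusted p = 0.113) and in M491-D09 at 427.9, 398.7 and 432.2 CPM (0.15 ± 0.08, SE, adjusted p = 0.193). Among clones with low members HAP4 was thus called lower in some and did not pass in M495-D09 and M491-D09. Of the 9 measured regulators 2 rose and 2 fell in M495-D09 (HAP5 rose by 0.23 and ROX1 and MIG1 fell by 0.25 and 0.29), and 2 rose and 4 fell in M495-F02, where ROX1, a repressor of hypoxic genes, rose by 0.58 ± 0.09 and MIG1, a glucose repressor, fell by 0.58 ± 0.10 (SE). Of all genes 8.04% were higher and 5.41% lower in M495-D09, and 25.6% and 24.7% in M495-F02.

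Genes of galactose use and of mating type also moved in some clones, with and without lower members. All 10 genes of galactose use fell in M495-F02 (median -0.95, 24.7% of all genes lower). GAL3 (-1.34 ± 0.06), PGM2 (-1.21 ± 0.10) and GAL1 (-1.20 ± 0.10, SE) led them. GAL1 averaged 8781 ± 460.4 CPM in M495-F02 and 20150 ± 1832 CPM in the control (SD, n = 3 each). In M495-D09 PGM2 alone changed, rising by 0.38, while 7 of the 10 fell in M491-F10 (median -0.39, 8.9% of all genes lower), where SDH2 rose. All 4 alpha-type markers fell in M495-D09 (5.41% of all genes lower) and M492-C04 (4.09%), where members fell. They also fell in M491-C04 (6.93%), M491-E04 (3.07%) and M491-E09 (1.285%), where members rose. In M495-F02 2 of them fell, and at least 1 of them fell in 15 clones, while neither of the 2 measured a-type markers was called in any clone. These comparisons share the control, which was itself higher than the other groups for 2 of the 4 alpha-type markers (2.63% of all genes higher). MF(ALPHA)1 averaged 272.4 ± 54.8 CPM in M495-D09 and 652.4 ± 303.8 CPM in the control (SD, n = 3 each). Their part in the results on the members was not tested.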

How the data were processed

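Polyadenylated RNA of 78 libraries (26 groups of 3) was sequenced. The deposited values are raw counts for each gene and were not normalized by the authors. Per the labels and the submitters' processing notes, reads were trimmed and deduplicated with fastp 0.23.1. STAR 2.5.2b served for alignment, and featureCounts (Subread 1.5.2) counted the unique hits. The notes name build R64, but per the file headers the gene rows lie on 204 contigs of another assembly, so R64 served for gene names alone and no coordinates, promoter or protein sequences were used here. A row without a name and a row named UNDEF, with a median of 0.886% and 2.36% of counts, were left out of all fits and scaling. Reads could be lost or shared where a fusion construct holds part of a gene in the genome. This was not tested for the members. The length column is a coding length. Total counts were 10773809 to 18981572, median 14019225.

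Tests used edgeR 4.0.16 (R 4.3.3), TMM factors, filterByExpr by group (5212 genes kept, 17 left out) and the quasi-likelihood test on 1 fit of all libraries, with terms for group and library set and 51 residual degrees of freedom. Adjusted p-values are Benjamini-Hochberg values over all genes within each comparison, with a threshold of 0.05. "Called", "rose", "fell", "higher for" and "lower for" a number of members mean past it. SE was taken as the log2 value divided by the square root of F. Correlations used log2 CPM with a prior count of 2. The 35 members, the gene lists and the rule for named genes were chosen with earlier results of these data known. That rule took the extremes per complex in the control, the 5 largest F, up to 4 called members without overlap in the 6 clones with most calls, the 10 largest differences from the other groups, up to 3 genes per list and the 10 rows most like the mean. Other genes were named after their values were seen. The fit was tested on simulated data. Alternatives were a replicate block, no set term, the first set alone, RLE size factors, no filter, DESeq2 1.42.0 and leaving out each library. A further one took row A and rows B and C of the resubmitted set as separate batches.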

Additional observations from a re-analysis of the deposited data

Results flagged for a closer look

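In 9 of the 25 clones the mean log2 CPM of the 25 genes, less that of the control of the same library set, was above 0 in both first-set libraries and below 0 in the resubmitted library. The difference between the sets was not tested. It was -0.412 in M491-C03 (-0.285 in the resubmitted and 0.128 in the first set), -0.405 in M491-C04 (-0.0889 and 0.316), -0.323 in M491-C06 (-0.141 and 0.183), -0.318 in M491-C07 (-0.0641 and 0.254), -0.281 in M490-F09 (-0.141 and 0.14), -0.28 in M491-F10 (-0.128 and 0.152), -0.18 in M491-C09 (-0.0498 and 0.13), -0.169 in M492-C11 (-0.118 and 0.0516) and -0.0659 in M492-D07 (-0.0073 and 0.0586). Of these clones 5 have their first-set libraries in plate row A. M491-C03, M492-C11 and M492-D07 had no called member. The resubmitted values all rest on 1 control library.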

How the results depend on the processing

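With the replicate block in place of the set term 115 clone and gene pairs were called, 115 of them among the 116, and 189 pairs against the other groups. The block changed no call among the 23 named differences. Correlations of deviations between libraries of the same number were over 0.1 for all 3 numbers in 24 of 25 clones. Within the first set the difference of replicates 1 and 2 correlated with that of the control with a median of -0.01. The values ran from -0.30 to 0.31 and were over 0.1 in 7 clones. As they rest on 1 difference in the control, they cannot decide whether the numbers pair samples beyond the set. Without the set term, 30 pairs and 67 against the other groups were called, and 12, 8, 0, 1, 2 and 2 members in M495-D09, M495-F02, M491-E04, M492-C04, M491-C04 and M491-D09. With the first set alone these were 269 and 338 pairs, 23 members in M491-E04, 23 in M491-C04, 14 in M491-D09 and 3 for the average of the clones. With row A and rows B and C of the resubmitted set as separate batches, 19 members were called in M491-E04 and 14 in M491-C04. That fit held no term for the rows of the first set. The average of the clones of rows A, B and D alone called 5 members higher, 3 higher and 13 lower, beside 12%, 8.25% and 4.26% of all genes, and row D holds M495-D09 and M495-F02.

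Leaving out 1 control library, or replicate 1 or 2 of every group, gave 34 to 95 pairs and 64 to 197 against the other groups. With each of the 78 libraries left out as well, the fits gave 21 to 25 members differing among groups, 22 to 23 between sets and 0 for the average. Counts were 18 to 21 in M495-D09, 12 to 19 in M495-F02, 2 to 14 in M491-E04, 3 to 10 in M492-C04, 2 to 13 in M491-C04 and 3 to 8 in M491-D09. The 34 and 64 came without replicate 1 of every group. All 116 called pairs kept their direction under each of these settings that refitted every clone. RLE size factors, no filter and DESeq2 (118, 118 and 129 pairs) changed none of the 23 named calls. At the low level of CYC1, 17.6 to 34.8 CPM in M495-D09 and the control, its call was lost in 4 of the 6 fits that left out 1 of these libraries.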
